A study of Homo sapiens with 4 samples.

Results

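The mRNAs described here encode the machinery that carries newly made proteins across or into the membrane of the endoplasmic reticulum (ER): the Sec61 channel (SEC61A1, SEC61B and SEC61G), the translocon-associated protein complex TRAP (SSR1, SSR2, SSR3 and SSR4) and the signal peptidase complex (SEC11A, SPCS1 and SPCS2). They were chosen by symbol, under a minimum of 10 counts over all libraries together. All 10 named genes met that minimum, out of 19948 genes in the table and 9865 that reached it. The least counted of them, SEC61A1, had 475 counts, so none lay near the minimum.

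The samples were HEK293T cells, an established human embryonic kidney line, grown in 3 dishes and given cycloheximide at 100 ug/mL for 10 min, an inhibitor that holds elongating ribosomes in place on their mRNAs. No other treatment or genotype is named in the labels, and all pools share the drug. The lysate was parted on sucrose from 10% to 50% into a free pool (mRNA without ribosomes), a monosome pool, a light polysome pool and a heavy polysome pool, with 1 library of capped, polyadenylated RNA from each, read directly on nanopores. With a single library in each pool there was no replicate spread to hold a difference against and no test was possible, so every interval below covers 95% counting error only.

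The Sec61 channel is a pore in the ER membrane to which ribosomes dock, so that a growing chain is threaded through while it is still being made. Its alpha subunit forms the pore, and the beta and gamma subunits are small proteins held by a single membrane anchor near the end of the chain. TRAP sits beside the pore and helps some signal sequences to open it, and signal peptidase cuts the signal sequence off the chain on the far side. These proteins are themselves membrane proteins of the ER, and their coding sequences run from 207 nucleotides in SEC61G to 1431 nucleotides in SEC61A1. On a gradient an mRNA can travel no further than the number of ribosomes it holds allows, and a short coding sequence has room for fewer.

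The coding sequences of the 2 shortest members, which have up to 300 nucleotides, are printed whole. They are followed by the stretch of SPCS1, the next shortest, of SEC61A1, the longest, and of SSR4 that holds the same feature. Capitals mark the 57 bases whose 19 codons have the highest mean hydropathy in that coding sequence, which is the most membrane-like stretch of the chain. Sequences are those of GENCODE 29 transcripts on GRCh38, from the start codon unless codons are given.
SEC61G, whole coding sequence: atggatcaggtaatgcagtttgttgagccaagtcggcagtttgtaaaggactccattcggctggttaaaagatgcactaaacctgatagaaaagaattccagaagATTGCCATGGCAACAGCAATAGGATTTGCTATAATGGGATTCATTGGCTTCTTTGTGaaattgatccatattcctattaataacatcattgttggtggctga
SEC61B, whole coding sequence: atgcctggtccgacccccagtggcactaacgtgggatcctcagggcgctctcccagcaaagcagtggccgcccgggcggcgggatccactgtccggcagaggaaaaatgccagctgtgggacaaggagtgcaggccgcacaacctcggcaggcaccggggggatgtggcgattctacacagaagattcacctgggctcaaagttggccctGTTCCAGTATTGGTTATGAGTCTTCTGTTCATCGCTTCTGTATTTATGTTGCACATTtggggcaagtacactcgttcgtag
SPCS1, codons 13 to 51: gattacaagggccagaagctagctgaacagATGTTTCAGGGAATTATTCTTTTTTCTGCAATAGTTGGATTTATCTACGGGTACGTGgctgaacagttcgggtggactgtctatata
SEC61A1, codons 137 to 175: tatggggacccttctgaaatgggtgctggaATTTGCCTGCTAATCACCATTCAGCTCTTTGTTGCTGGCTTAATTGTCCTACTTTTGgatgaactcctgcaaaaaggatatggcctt
SSR4, codons 1 to 29: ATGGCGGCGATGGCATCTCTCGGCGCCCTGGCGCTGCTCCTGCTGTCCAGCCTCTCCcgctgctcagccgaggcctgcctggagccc
In SEC61B the marked stretch ends 7 codons before the stop codon, and in SEC61G it ends 14 codons before it. In SEC61A1 it covers codons 147 to 165 and 311 codons follow it. In SSR4 it covers codons 1 to 19, the region of a signal sequence, and 154 codons follow it. In SPCS1 it covers codons 23 to 41 of 102.

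The libraries held 355509 counts in the free pool, 1329334 in the monosome pool, 1499401 in the light polysome pool and 1564531 in the heavy polysome pool. The free library therefore limits precision most: a floor of 3 counts there is 8.44 CPM (a count divided by its library total, times 1000000), against 1.92 CPM in the heavy polysome library. Of the genes fixed as marks of this line, VIM had 850 counts in all, LIN28B 98, PAX2 6 and NES 1. Of 8 marker genes of blood, fibroblast, endothelial and liver cells, 6 had no count in any library, and COL1A1 and APOA1 had 2 and 3. A value in CPM is a share of its library, and no source used here states the RNA mass of the pools, so a lower share and less of an mRNA cannot be told apart.

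The 10 mRNAs together took 0.136% of the free library (interval 0.124 to 0.148), 0.213% of the monosome library (0.206 to 0.221), 0.295% of the light polysome library (0.286 to 0.304) and 0.292% of the heavy polysome library (0.283 to 0.300). The summed CPM of the Sec61 channel and of signal peptidase were highest in the light polysome library, and that of TRAP in the heavy polysome library. The 3 Sec61 mRNAs summed to 264 CPM in the free, 886 in the monosome, 914 in the light polysome and 419 in the heavy polysome library. The 4 TRAP mRNAs summed to 745, 646, 1142 and 1666 CPM in the same order of pools. The 3 signal peptidase mRNAs summed to 346, 602, 894 and 831 CPM. The Sec61 sum was thus highest in the middle of the gradient and the TRAP sum at its heavy end. For Sec61 the monosome interval (836 to 938 CPM) and the light polysome interval (866 to 963 CPM) overlapped. For signal peptidase the light polysome interval (847 to 944 CPM) and the heavy polysome interval (786 to 877 CPM) overlapped.

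**Figure D1:**
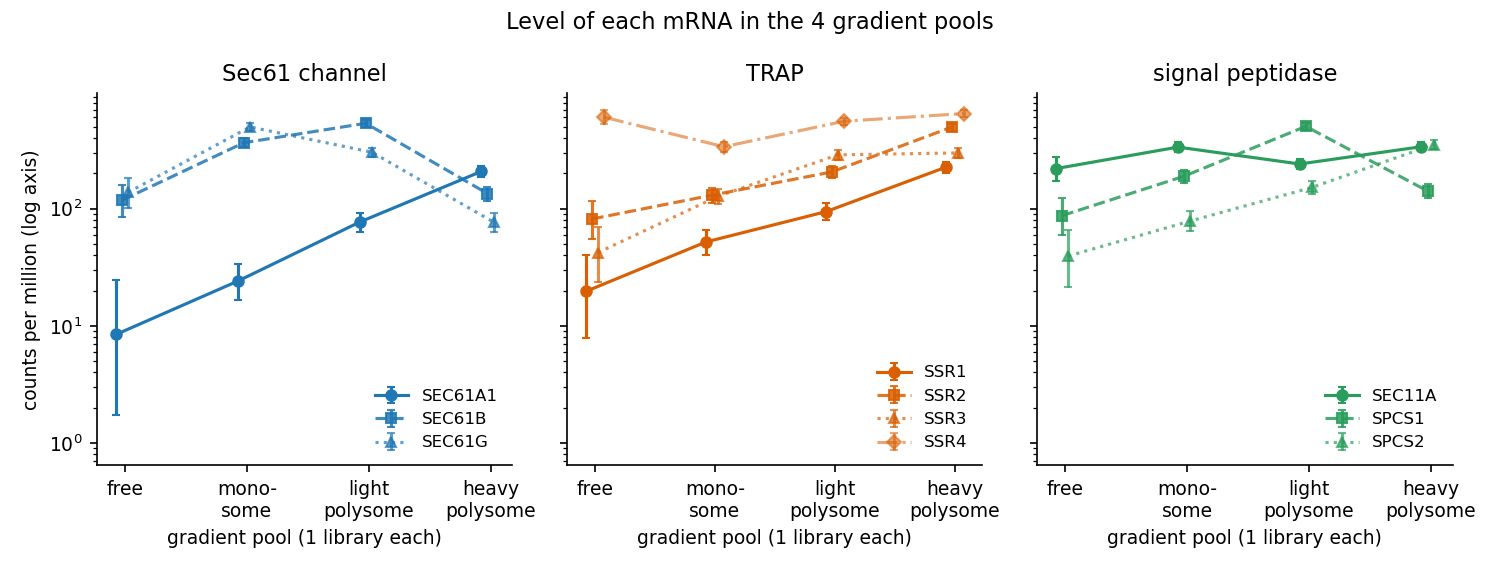
CPM (log axis) of the 10 mRNAs in the 4 pools, from free to heavy polysome, in a panel per complex; points are single libraries and bars are exact Poisson 95% intervals of the count. In point values SEC61A1, SSR1, SSR2, SSR3 and SPCS2 climb at each step to the heavy pool. The free and monosome intervals of SEC61A1, SSR1, SSR2 and SPCS2 overlap, as do the light and heavy polysome intervals of SSR3. SEC61G is highest in the monosome pool at 497 CPM. SEC61B and SPCS1 are highest in the light polysome pool at 534 and 503 CPM.

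Within the Sec61 channel the pore subunit and the small subunits lay at opposite ends of the group. SEC61A1 (chromosome 3, 128051641 to 128071683, forward strand), which encodes the pore, had 3 counts in the free, 32 in the monosome, 115 in the light polysome and 325 in the heavy polysome library. These are 8.44, 24.1, 76.7 and 208 CPM, an increase at each step toward the heavy end, though the free and monosome intervals overlapped. SEC61B (chromosome 9, 99222064 to 99230615, forward strand), the beta subunit, had 42, 485, 801 and 210 counts, or 118, 365, 534 and 134 CPM, highest in the light polysome pool. SEC61G (chromosome 7, 54752250 to 54759974, reverse strand), the gamma subunit, had 49, 661, 454 and 120 counts, or 138, 497, 303 and 76.7 CPM. It was the 1 member with its highest share in the monosome pool, where 560 of 7527 tested genes (7.44%) also peaked.

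As a share of its own CPM summed over the pools, SEC61A1 had 65.5% in the heavy polysome pool, SEC61B 11.7% and SEC61G 7.56%. In the monosome pool SEC61A1 had 7.60%, SEC61B 31.7% and SEC61G 49.0%. The 3 subunits stand in equal number in the channel, but their mRNAs were spread over the gradient in different ways.

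Among the TRAP mRNAs 3 leaned more strongly to the polysomes than SSR4. Light and heavy polysomes together held 81.7% of the summed CPM of SSR1, 76.8% of SSR2, 77.6% of SSR3 and 56.2% of SSR4. SSR1 (chromosome 6, 7268306 to 7347446, reverse strand), the alpha subunit, had 7, 69, 141 and 352 counts from free to heavy polysome, or 19.7, 51.9, 94.0 and 225 CPM. SSR2 (chromosome 1, 156009048 to 156020959, reverse strand), the beta subunit, had 29, 173, 308 and 775 counts, or 81.6, 130, 205 and 495 CPM. Both climbed at every step in point values, though the free and monosome intervals of each overlapped. SSR3 (chromosome 3, 156540140 to 156555184, reverse strand), the gamma subunit, which spans the membrane several times, had 15, 169, 431 and 467 counts, or 42.2, 127, 287 and 298 CPM. The counting intervals of its light (261 to 316 CPM) and heavy polysome (272 to 327 CPM) values overlapped. SSR4 (chromosome X, 153793516 to 153798505, forward strand), the delta subunit, had 214, 448, 833 and 1012 counts, or 602, 337, 556 and 647 CPM. Its share was lowest in the monosome pool and nearly as high in the free as in the heavy polysome pool, where the intervals, 524 to 688 and 608 to 688 CPM, overlapped. The light polysome interval, 518 to 595 CPM, also overlapped that of the free pool. The free pool held 28.1% of the summed CPM of SSR4, against 5.04% of SSR1, 8.94% of SSR2 and 5.59% of SSR3.

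Each signal peptidase mRNA had a pattern of its own. SEC11A (chromosome 15, 84669538 to 84716716, reverse strand), a catalytic subunit, had 78, 445, 360 and 528 counts, or 219, 335, 240 and 337 CPM, so that the monosome and the heavy polysome values were level and the light polysome value lay below both. SPCS1 (chromosome 3, 52704955 to 52711146, forward strand), a small accessory subunit, had 31, 251, 754 and 221 counts, or 87.2, 189, 503 and 141 CPM. It had 54.7% of its summed CPM in the light polysome pool, more than any other of the 10 mRNAs. SPCS2 (chromosome 11, 74949247 to 74979031, forward strand), an accessory subunit that contacts Sec61, had 14, 104, 227 and 551 counts, or 39.4, 78.2, 151 and 352 CPM. These values climbed at each step like those of SEC61A1, SSR1 and SSR2, and again the free and monosome intervals overlapped. The heavy polysome pool held the highest share of 7 of the 10 mRNAs, as it did for 61.3% of all tested genes.

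A mean gradient position was computed for each gene by weighting its CPM by 0 in the free, 1 in the monosome, 2 in the light polysome and 3 in the heavy polysome pool. The 10 mRNAs had a median position of 1.94, against 2.25 for the 7527 tested genes (those with at least 30 counts over the libraries), whose quartiles were 1.95 and 2.47. SEC61G lay lowest at 1.31 (counting interval 1.25 to 1.37). SSR4 at 1.58 (1.52 to 1.65), SEC61B at 1.59 (1.54 to 1.65) and SEC11A at 1.61 (1.53 to 1.69) followed and did not differ beyond their intervals. SPCS1 lay at 1.76 (1.69 to 1.83), and its interval just touched that of SEC11A. A gap followed, to SSR3 at 2.12 (2.04 to 2.19), SSR2 at 2.22 (2.14 to 2.30), SPCS2 at 2.31 (2.22 to 2.40), SSR1 at 2.34 (2.24 to 2.45) and SEC61A1 at 2.53 (2.43 to 2.62). Each of these overlapped its neighbour in the order. The interval of SEC61A1, with 3 counts in the free library, is approximate. SEC61G stood at percentile 3.69 of all tested genes and SEC61A1 at percentile 80.9. With the free library left out, SSR4 moved from the second to the fifth place in this order, behind SEC61B, SPCS1 and SEC11A.

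**Figure D2:**
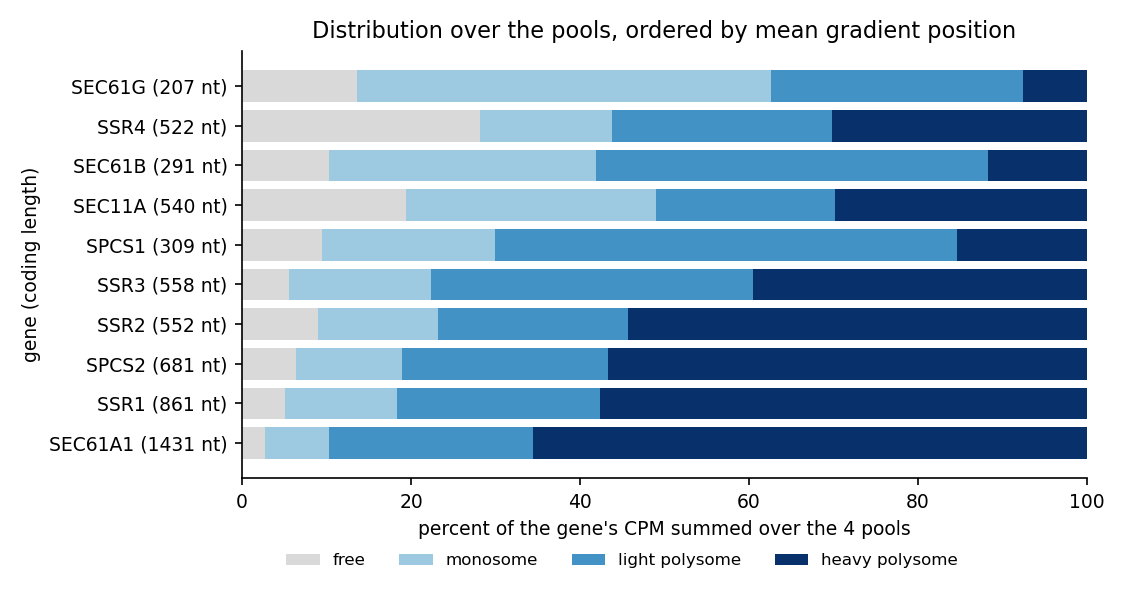
Distribution of each mRNA over the free, monosome, light polysome and heavy polysome pools, as percent of its CPM summed over the pools, with genes ordered from the lowest mean gradient position at the top (SEC61G, 1.31) to the highest (SEC61A1, 2.53). The heavy polysome part is smallest in SEC61G at 7.56% and largest in SEC61A1 at 65.5%, with no steady climb among the first 5 genes, and SSR4 has the widest free part at 28.1%.

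Position went with coding length among the 10 mRNAs, with a Spearman rho of 0.927 over these genes, which share the same 4 libraries. Over 7466 tested genes with a coding length the rho was 0.309. Without the free library it was 0.964 over the 10. SEC61G, SEC61B and SPCS1, with 207, 291 and 309 nucleotides, lay at 1.31, 1.59 and 1.76, while SPCS2, SSR1 and SEC61A1, with 681, 861 and 1431 nucleotides, lay at 2.31, 2.34 and 2.53. The tested genes as a whole moved the same way: 205 genes of up to 300 nucleotides had a median position of 1.55 (quartiles 1.38 and 1.72), 1032 genes above that and up to 600 had 1.88 (1.61 and 2.12), 2504 up to 1200 had 2.27 (2.01 and 2.49), and 3725 longer ones had 2.33 (2.10 and 2.51). Within these classes SEC61B, SEC11A, SPCS1, SSR3, SPCS2 and SSR1 lay between the quartiles. SEC61G and SSR4 lay under the lower one, and SSR2 and SEC61A1 lay above the upper one. The counting intervals of SSR4, SEC11A, SSR3 and SEC61A1 included a quartile of their class. Only SEC61G and SSR2 thus lay outside the quartiles beyond counting error.

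The 4 members of nearly equal coding length were not at one position. SSR4 with 522 and SEC11A with 540 nucleotides lay at 1.58 and 1.61, whereas SSR2 with 552 and SSR3 with 558 lay at 2.22 and 2.12. The intervals of the lower pair were apart from those of the upper pair. With the free library left out, SSR4 lay at 2.20 and SEC11A at 2.00, against 2.44 for SSR2 and 2.24 for SSR3. SSR4 and SSR3 were then nearly level. SSR4 and SEC11A had 28.1% and 19.4% of their summed CPM in the free pool, the highest free shares of the 10, and SSR2 and SSR3 had 8.94% and 5.59%. SSR4 and SSR2 had coding GC contents of 58.8% and 52.2%, and SEC11A and SSR3 had 41.1% and 44.3%; the part of GC content in their positions was not tested.

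**Figure D3:**
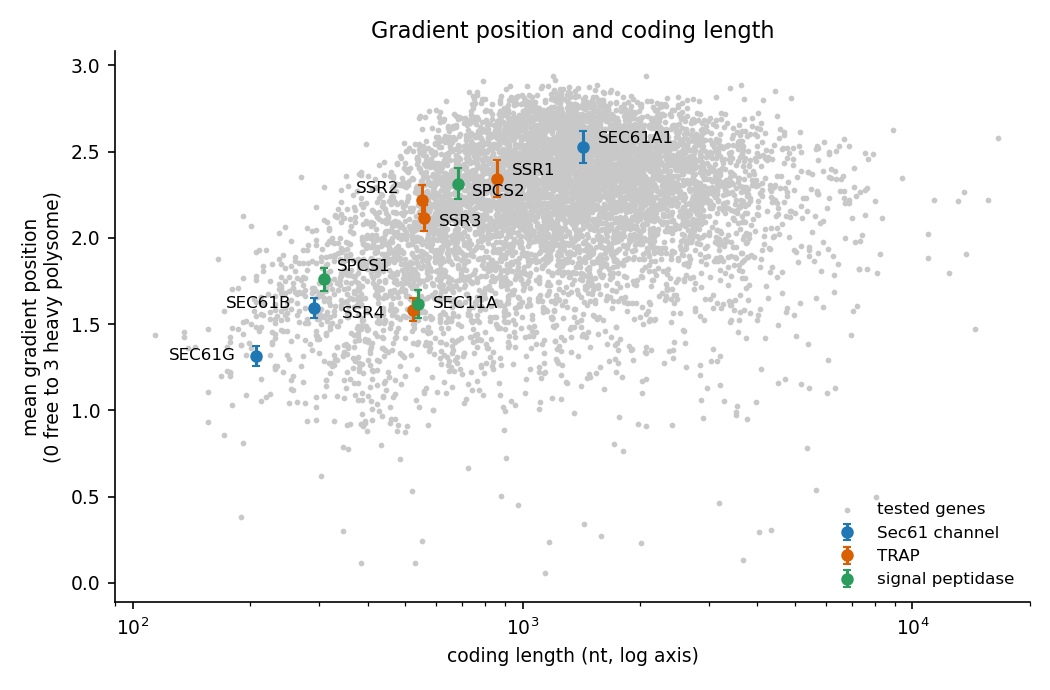
Mean gradient position (0 free to 3 heavy polysome) against coding length (log axis) of all tested genes in grey and of the 10 mRNAs in colour by complex, with 95% counting intervals as bars. The 10 mRNAs climb from SEC61G at 207 nucleotides to SEC61A1 at 1431. Between 522 and 558 nucleotides SSR4 and SEC11A (1.58 and 1.61) lie below SSR2 and SSR3 (2.22 and 2.12). Without the free library, not drawn here, SSR4 and SSR3 lay at 2.20 and 2.24.

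The heavy polysome library was set against the free library to ask which of these mRNAs carry many ribosomes rather than none. The share of the median tested gene was 8.26-fold higher in the heavy polysome library (log2 3.05), so log2 ratios of shares are given relative to that median gene. A gene was called higher or lower when it lay at least 2-fold from the median gene and its counting interval excluded it. By this rule 5 of the 10 mRNAs were called lower and 1 higher, where 15.3% and 6.36% of all tested genes were. Of the 7527 tested genes, 2348 had no count in the free library and could not be called lower. Each of the 10 mRNAs had free counts, so these shares are not a like background. With equal library shares as the zero point 0 of the 10 were lower and 5 higher. That zero point adds 3.05 to every gene. The share of all tested genes then called was not computed, here or in the comparisons below. Relative to the median gene, the median of the 10 was -1.42, and the tested genes had quartiles of -1.28 and 0.93.

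SEC61G, with 120 counts in the heavy polysome and 49 in the free library, lay at -3.90 (interval -4.38 to -3.38). SSR4, with 1012 against 214 counts, lay at -2.94 (-3.16 to -2.72), and SEC61B, with 210 against 42, at -2.87 (-3.34 to -2.35). Both signal peptidase genes SEC11A (528 against 78 counts) and SPCS1 (221 against 31) were called lower too, at -2.43 (-2.77 to -2.06) and -2.37 (-2.90 to -1.76). SEC61A1 was the member called higher, at 1.36 (0.02 to 3.86), a value that rests on 3 counts in the free library. With only genes of 100 or more counts as the background it lay at 1.24 and was not called. SSR1 at 0.37 (-0.59 to 1.79), SPCS2 at 0.07 (-0.64 to 1.00), SSR3 at -0.27 (-0.96 to 0.63) and SSR2 at -0.47 (-0.98 to 0.14) had intervals that included the median gene. Without a filter on low counts SSR1 at 1.50 and SPCS2 at 1.20 were called higher too. When the deeper monosome library replaced the free library, SSR4 lay at -0.80 and was no longer called.

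The heavy polysome library was next set against the light polysome library, which parts mRNAs with many ribosomes from those with few, and here the counts were higher. The median gene lay at log2 0.59. SEC61B, with 210 heavy against 801 light polysome counts, SEC61G with 120 against 454, and SPCS1 with 221 against 754 were called lower. That is 3 of 10, where 28.3% of all tested genes were called lower, and 0 of 10 were called higher, where 26% were, although 4 were with equal library shares as the zero point. The values of the 3 were close to one another, at -2.58 (-2.81 to -2.36) for SEC61B, -2.57 (-2.87 to -2.28) for SEC61G and -2.42 (-2.65 to -2.20) for SPCS1. These are the 3 shortest coding sequences of the group, the first 3 shown above. Genes of up to 300 nucleotides had a median of -2.62 in this comparison, and those above that and up to 600 had -1.39.

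The other 7 mRNAs lay within 2-fold of the median gene. SEC61A1 with 325 against 115 counts lay at 0.84 (0.54 to 1.17), SSR2 with 775 against 308 at 0.68 (0.49 to 0.87), SSR1 with 352 against 141 at 0.66 (0.38 to 0.96) and SPCS2 with 551 against 227 at 0.63 (0.40 to 0.86). These 4 had intervals above the median gene that overlapped each other. SEC61A1 was called higher, at 1.04, with only genes of 100 or more counts as the background, and at 1.53 with the libraries thinned to equal depth. SEC11A at -0.10 (-0.30 to 0.10) was level with the median gene. SSR4 at -0.37 (-0.50 to -0.24) and SSR3 at -0.54 (-0.73 to -0.34) lay a little below it. SSR4, called lower against the free pool, was thus near the median gene once both pools held ribosomes.

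**Figure D4:**
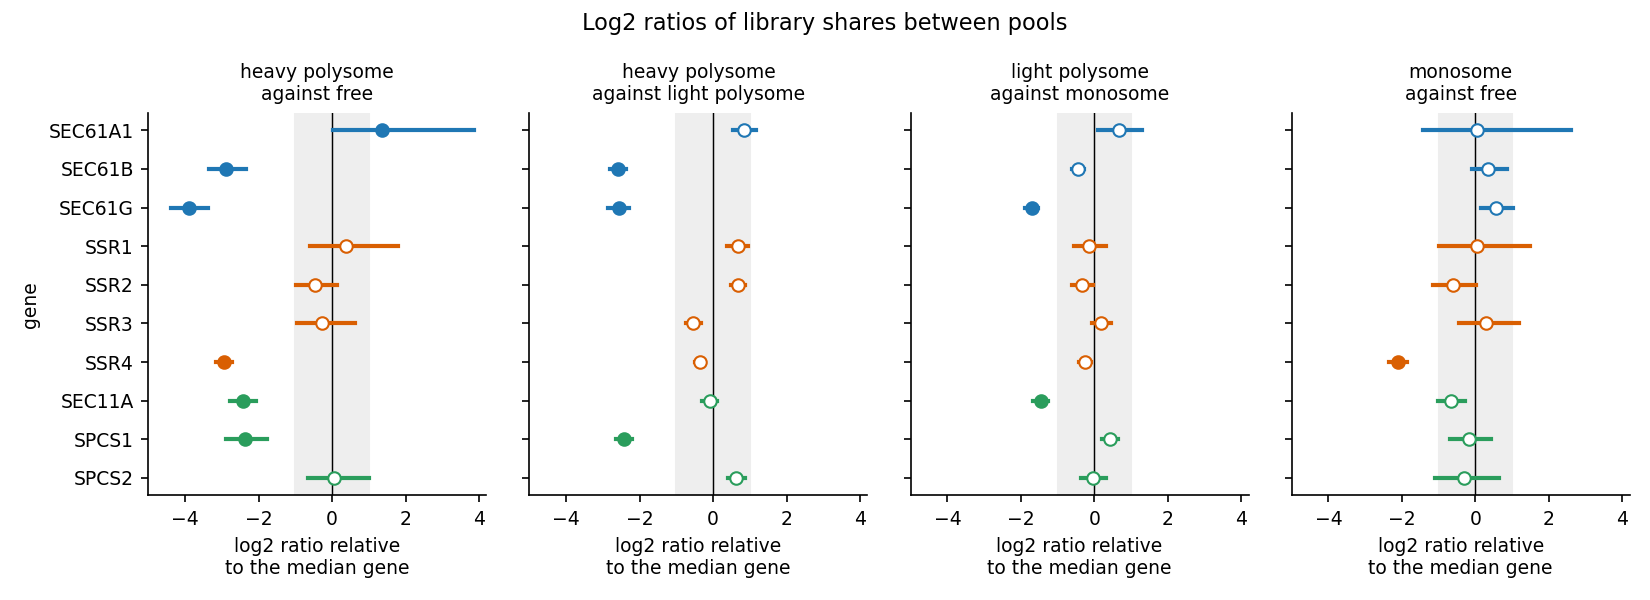
Log2 ratio of library shares relative to the median tested gene for the 10 mRNAs in each comparison, with 95% counting intervals as lines; filled points were called, open points were not, and the grey band marks 2-fold either side. SEC61B, SEC61G and SPCS1 lie near -2.5 in heavy against light polysome, and SSR4 is the filled point at -2.11 in monosome against free; with equal library shares as the zero point the points would shift right by 3.05, 0.59, 0.98 and 1.27 from the left panel to the right one.

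Light polysomes were then set against monosomes, the pool of a single ribosome, again as library shares relative to the median gene. The median gene lay at log2 0.98. SEC61G, with 454 counts in the light polysome and 661 in the monosome library, lay at -1.70 (-1.88 to -1.52), and SEC11A, with 360 against 445, at -1.46 (-1.67 to -1.26). These 2 of 10 were called lower, where 16.3% of tested genes were, and 0 of 10 were called higher, where 14.9% were, but with equal library shares as the zero point 0 were called lower and 3 higher. SEC61B, near in length to SEC61G, lay at -0.43 (-0.60 to -0.27) with 801 against 485 counts, and SPCS1 at 0.43 (0.22 to 0.64) with 754 against 251. The 3 mRNAs with the shortest coding sequences were close to one another in heavy against light polysome. In this step their intervals did not overlap. SEC61A1 lay at 0.67 (0.11 to 1.30), and the remaining members lay between -0.33 (SSR2) and 0.19 (SSR3).

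In monosome against free, SSR4 was the 1 member called, with 448 counts in the monosome and 214 in the free library. Its value was -2.11 (-2.34 to -1.86), while 4.57% of tested genes were called lower. The 2348 tested genes without a free count could not be called lower here either. None of the 10 was called higher, where 5.13% were, although 5 were and 0 were lower with equal library shares as the zero point, since the median gene lay at log2 1.27. SEC61G at 0.57 (0.16 to 1.03) was the highest member, and SEC11A lay at -0.67 (-1.01 to -0.29). The other 7 had intervals that included the median gene, which for SEC61A1, with 32 against 3 counts, ran from -1.43 to 2.60. Without a filter on low counts SEC61B at 1.04 and SEC61G at 1.26 were called higher. The comparisons share libraries, so their values are not independent of each other.

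Among genes outside the group with at least 1000 counts, the 1 whose distribution over the pools was nearest was found for each member, by the summed absolute difference in percent of CPM over 4 pools and 635 candidates. TMED9, which codes for a cargo protein receptor of the early secretory pathway, was nearest to SEC61A1, at 1.44 percentage points, and TOMM20, for a mitochondrial import receptor, was nearest to SSR2, at 1.86. RPN1, for a subunit of oligosaccharyltransferase, was nearest to both SSR1 (2.85) and SPCS2 (3.72). EIF4EBP1, for a repressor of cap-dependent translation, was nearest to SEC61B (3.66), and HSPB1, for a small heat shock protein, to SEC61G (4.00). The mitochondrial genes COX7C and NDUFAF3 were nearest to SPCS1 (4.04) and SSR3 (4.77). SEC11A and SSR4 had no such close neighbour: the nearest were ribosomal protein genes, RPL10A at 7.44 and RPS9 at 18.2. SSR4 had more in the free pool (28.1%) and less in the monosome pool (15.7%) than RPS9, with 22.0% in each.

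Other genes of targeting to and insertion into the ER spread over the same range. Of 48 listed, 43 were tested. In heavy against light polysome 14 were called higher and 7 lower, with a median of 0.15, where 26% and 28.3% of all tested genes were called. In heavy polysome against free 6 were called higher and 8 lower, with a median of 0.24, where 6.36% and 15.3% of all were. In light polysome against monosome the counts were 7 and 9, against 14.9% and 16.3% of all, and in monosome against free 4 and 1, against 5.13% and 4.57%. Their median position was 2.29, against 1.94 for the 10 mRNAs, and 25 of 43 lay above the median tested gene. The copies NOMO1, NOMO2 and NOMO3, described below, entered these numbers as separate genes. The medians of 2.29 and 0.15 are values of these copies. Highest and lowest genes of a list are named below among those with at least 100 counts.

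The partners of the Sec61 channel and the paralogues of the members showed where length and position parted. SERP1, a small protein that binds Sec61 and is coded by 201 nucleotides, had 20, 93, 447 and 353 counts from free to heavy polysome and lay at 2.07 (1.98 to 2.16), well above SEC61G of like length at 1.31. TRAM1, a membrane protein beside the channel with 1125 coding nucleotides, had 17, 278, 199 and 167 counts and lay at 1.60 (1.51 to 1.69). SEC63, which links the channel to the chaperone HSPA5, had 0, 9, 3 and 89 counts and lay highest at 2.76 (2.63 to 2.89). That interval takes no error from the free pool, with its 0 counts, and is therefore too narrow. SEC61A2, the paralogue of the pore subunit with the same coding length of 1431 nucleotides, had 33 counts in all, 2, 6, 9 and 16. Its position of 1.79 (1.20 to 2.38) had a wide interval that lay just below that of SEC61A1. Both intervals are approximate because of the few free counts.

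SEC11C, the other catalytic subunit of signal peptidase, had 9, 138, 227 and 207 counts and lay at 1.95 (1.85 to 2.05), above SEC11A at 1.61. SPCS3, the remaining subunit, had 1, 26, 47 and 186 counts and lay at 2.54 (2.42 to 2.66). Counting the 3 members, the signal peptidase mRNAs thus ran from 1.61 to 2.54.

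Of the oligosaccharyltransferase, which adds sugar chains beside the channel, 11 of 12 genes were tested, with a median position of 2.35. OST4, with 114 coding nucleotides its smallest subunit here, had 38, 1025, 964 and 125 counts and lay lowest at 1.43 (1.40 to 1.47). MAGT1 lay highest at 2.63 (2.44 to 2.82). Between heavy and light polysomes OST4 lay at -3.59 (-3.88 to -3.33). Of the receptor of the signal recognition particle, SRPRA lay at 2.72 and SRPRB at 2.45. In the multipass translocon, an assembly that joins the channel for proteins with several membrane spans, TMEM147 lay lowest at 2.02 and NCLN highest at 2.72. NOMO1, NOMO2 and NOMO3, copies with the same coding length of 3669 nucleotides, are uncertain because reads could be split among them: NOMO1 and NOMO3 had the same 4 counts, 3, 28, 77 and 136, and NOMO2 had 4, 45, 111 and 194.

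The ER membrane complex, an insertion route of its own, had a median position of 2.38. Its most counted member EMC6, with 137, 1661, 718 and 68 counts, lay at 1.08 (1.05 to 1.12), lower than all 10 mRNAs of the group, and EMC10 lay highest at 2.63. In the GET pathway, which inserts tail-anchored proteins after their synthesis, CAMLG lay at 1.74, UBL4A at 2.27 and SGTA at 2.65. KRTCAP2 and WDR83OS had no count in any library, and TRAM2, SERP2 and GET4 had 19, 28 and 1, so these 5 were not tested.

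**Figure D5:**
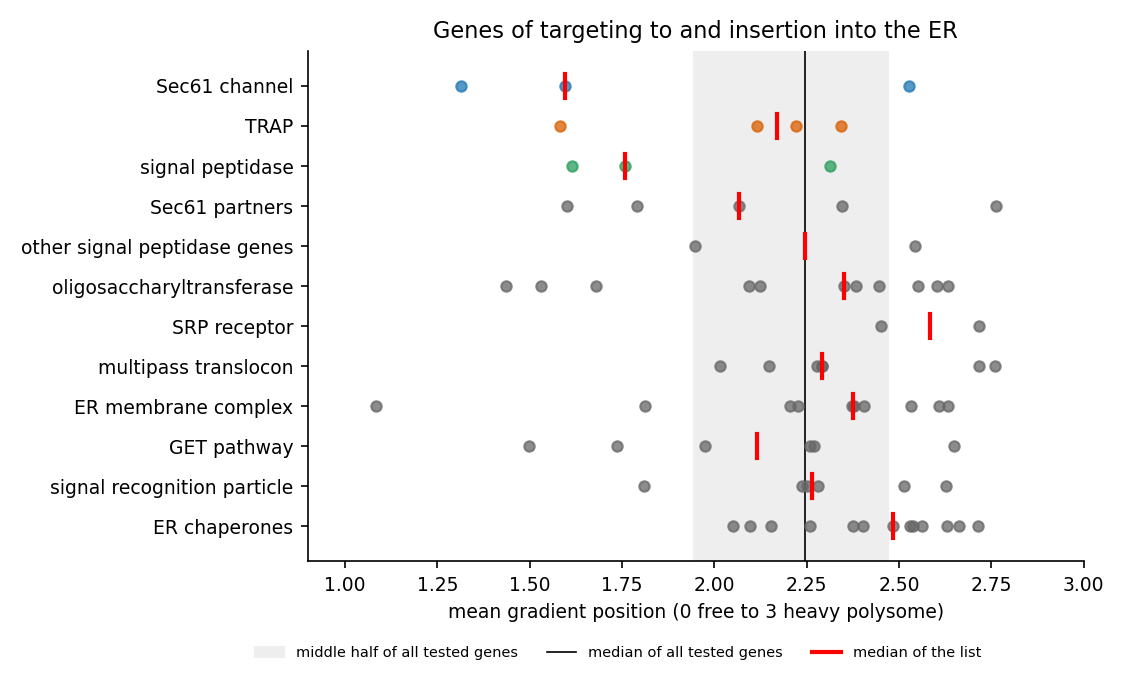
Mean gradient position (0 free to 3 heavy polysome) of each tested gene in the lists of ER targeting and insertion, with the Sec61 channel, TRAP and signal peptidase in colour, other lists in grey and each list's median as a red line; the grey band spans the quartiles of all tested genes, 1.95 and 2.47. The Sec61 channel runs from 1.31 to 2.53, and EMC6 at 1.08 is the lowest point.

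Against the 2 gene groups most like it, the group had the lower median position. The 6 proteins of the signal recognition particle, which brings ribosomes to the channel, had a median position of 2.26, with SRP9 (261 coding nucleotides) at 1.81 and SRP68 at 2.51. The 13 tested ER chaperones had a median of 2.48, with PPIB at 2.53, PDIA6 at 2.71 and HSPA5 at 2.10. Between heavy and light polysomes 8 of the 13 chaperones and 4 of the 6 particle genes were called higher and 0 and 1 lower, where 0 and 3 of the 10 mRNAs and 26% and 28.3% of all tested genes were. These differences were not tested, and the chaperones' coding sequences, from 558 nucleotides in MANF to 3000 in HYOU1, are longer than most of those described here.

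Some of these genes share sequence with others, and no source used here states how reads from such places were counted. In GENCODE 29, exons of SEC61A1 overlap those of RUVBL1 by 344 nucleotides on the opposite strand, those of SSR4 overlap IDH3G by 278, and those of SPCS1 overlap GLT8D1 by 397 and NEK4 by 2698. Antisense RNA genes overlap exons of SSR2 by 214 and of SSR1 by 151 nucleotides. Exons of SSR1 share 69 nucleotides with CAGE1 on the same strand. By name, 4 pseudogenes belong to SPCS2, 2 to SSR1 and 1 to SSR4. The part of these overlaps in the values was not tested.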

How the data were processed

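The authors deposited a table of raw counts per gene, whole numbers without scaling, with 1 column for each of 4 libraries of HEK293T RNA; no column was left unused. The submitters' processing notes name hg38, minimap2 2.15, featureCounts and Subread 1.6.2. No source used here states the annotation release, the strand setting or the treatment of multiply aligned reads. Direct RNA reads involve no PCR.

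CPM is a count over the library total. Tested genes had at least 30 counts in all. Ratios add 0.5 to each count. Intervals are Clopper-Pearson for ratios and shares, exact Poisson for CPM and a delta-method normal interval for positions, all at 95% and for counting error only. The position interval takes its error from the observed counts. A pool with 0 counts therefore adds none, and the interval is only approximate where a pool has few counts. With 1 library per pool no replicate test could be fitted, so no p-value is given. The procedure was tested on simulated data that held counting error only. That test did not cover spread between repeat libraries or the choice of zero point. Coordinates, coding lengths and sequences are those of the APPRIS principal transcript in GENCODE 29, of the same build; 99.2% of tested genes had a coding length. Hydropathy is that of Kyte and Doolittle.

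Members, lists and length classes were chosen with earlier results of these data known. Text names all members, each one's nearest gene, and each list's most counted, highest and lowest gene among those with at least 100 counts; SEC61A2, the untested list genes, NOMO1, NOMO2, NOMO3, MANF and HYOU1 were added after their values were seen. Alternatives were other minimum counts (10, 100, none), 1 added to each count, other zero points (equal shares, edgeR 4.0.16 TMM, DESeq2 1.42.0 size factors), thinning, another light end and other position totals. Python 3.11.15, numpy 2.4.6, pandas 2.3.3, scipy 1.17.1, matplotlib 3.10.9 and R 4.3.3 were used.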

Additional observations from a re-analysis of the deposited data

How the results depend on the processing

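With edgeR's TMM or DESeq2's size factors as the zero point, with a minimum of 10 counts or with 1 added to each count, all 40 values of the 10 mRNAs in the 4 comparisons kept their call, while 1 to 3 values changed sign in each of these settings. With equal library shares as the zero point 16 of 40 did. Members called higher then numbered 5 in heavy polysome against free, 4 in heavy against light polysome, 3 in light polysome against monosome and 5 in monosome against free, and members called lower numbered 0 in each of these but heavy against light polysome. The medians were then 1.63 in heavy polysome against free, 0.35 in heavy against light polysome, 0.79 in light polysome against monosome and 1.20 in monosome against free. The sign changed for 18 of 40 values: 6 in heavy polysome against free, 3 in heavy against light polysome, 5 in light polysome against monosome and 4 in monosome against free. Those called under either zero point were, in heavy polysome against free, SEC61B (0.17), SSR4 (0.10), SEC11A (0.61), SPCS1 (0.68), SSR2 (2.58) and SSR3 (2.78), and, in monosome against free, SPCS1 (1.09). This setting adds the log2 ratio of the median gene to every value. The share of all tested genes called under it was not computed. A minimum of 100 counts changed the number called higher to 0 in heavy polysome against free and to 1 in heavy against light polysome, where SEC61A1 lay at 1.04. Without a filter 3 were called higher in heavy polysome against free and 2 in monosome against free, whose median was 0.63. Genes without a count at a floor of 3, a setting chosen after seeing the data, gave 3 and 2 as well, and a median of 0.65 in monosome against free. Both settings lower the median of all tested genes. Thinning each library to 355509 counts called 1 member higher in heavy against light polysome, SEC61A1 at 1.53; the cause was not tested. The median position of the members went from 1.94 to 2.22 without the free library and to 1.70 with 88 ribosomal protein genes left out. Both values stayed within the members' second lowest and second highest positions, a wide range. Single positions shifted beyond their counting intervals for 9 of the 10 members without the free library and for all 10 without those genes. SSR4 went to 2.20 without the free library and to 1.17 without those genes. No paired analysis was possible because each pool has 1 library. Depth limits the free library, where SEC61A1 has 3 counts and SSR1 has 7.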
